A study of Mus musculus with 23 samples.

Results

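The mir-132 and mir-212 rows are 2 of the 903 mature miRNA rows counted in small RNA libraries of mouse retina. They were chosen by locus name, and both were read in 23 of 23 libraries. All retinas were taken at postnatal day 90, and there were 5 groups. In 4 of them the mice carried 1 P23H rhodopsin allele as a knock-in (P23H+/- KI), a mouse model of retinitis pigmentosa. These were mice treated with DNA nanoparticles, per the series title, that held the mouse rhodopsin gene in its genomic form (mouse gRho, 11 libraries), mice treated in the same way with the human gene (human gRHO, 3 libraries), mice given saline (2 libraries) and uninjected mice (5 libraries). Wild-type C57B mice, labelled untreated like the uninjected ones, formed the last group (WT, 2 libraries). The labels give neither a dose nor the day of injection. Titles were read as animal and eye, which is an inference, and the eyes of 1 animal were summed. This gave 7 mouse gRho, 2 human gRHO, 1 saline, 3 uninjected and 2 WT animals, numbered here within each group in sample order. WT titles have another form, and each WT library was taken as 1 animal.

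miR-132 and miR-212 are cut from a common noncoding primary transcript. In neurons that transcript is induced by activity and by neurotrophins through the transcription factor CREB, and in the hypothalamic clock miR-132 is induced by light. In neurons miR-132 promotes the growth of neurites. miR-132 is also induced in activated endothelial cells.

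The sequences of both hairpins and their arms are shown because the rows name a locus and no arm, and because the 3p arms share their seed, the bases that select targets. They come from RefSeq on build GRCm38.p6. The sources used here do not name the build of the deposited tables, and the positions belong to these sequences only. The hairpin of mir-212 lies at chr11:75173388-75173478 and that of mir-132 at chr11:75173682-75173747, both on the plus strand and 203 bases apart. No annotated gene lies between them; Hic1 is the nearest gene before them and Ovca2 the nearest after. In the hairpins the 3p arm is in capitals.
mir-132 hairpin: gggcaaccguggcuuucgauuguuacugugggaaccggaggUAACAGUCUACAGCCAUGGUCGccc
mir-212 hairpin: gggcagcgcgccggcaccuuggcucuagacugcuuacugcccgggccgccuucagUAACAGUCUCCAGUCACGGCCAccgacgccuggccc
In the mature arms the seed, bases 2 to 8 from the 5′ end, is in capitals.
mmu-miR-132-3p: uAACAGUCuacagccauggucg
mmu-miR-212-3p: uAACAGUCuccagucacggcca
mmu-miR-132-5p: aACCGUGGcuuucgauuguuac
mmu-miR-212-5p: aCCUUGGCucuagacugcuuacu

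The 3p arms share their seed with each other and with no further mature miRNA among the 1679 in the table. They are identical over their leading 9 bases and at 17 of 22 positions. Counted from the 5′ end, with the base of miR-132-3p first, they differ by A10C, C14U, U17C, U20C and G22A. The 5p arms have different seeds, are identical at 9 of the 22 positions compared, and share their seeds with no other mature miRNA in the table. Which arm a deposited row counts cannot be read from it.

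Both rows were well above the detection limit. mir-132 had between 250 and 1495 reads per library (median 1021), and mir-212 between 71 and 429 (median 245). Levels are given as CPM, the reads of a row per 1000000 mature miRNA reads of the library. They had medians of 100.6 for mir-132 and 23.8 for mir-212, ranks 54 and 106 in reads among the 903 rows. The libraries held between 5968388 and 16048954 mature miRNA reads. The precision from counting alone was thus narrow even in the library with the fewest reads of mir-212, where 71 reads gave 10.2 CPM with an exact Poisson 95% interval of 7.94 to 12.8. Such intervals cover counting error only.

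A pair of libraries was marked without regard to group, the right eye of mouse gRho animal 1 and the single library of uninjected animal 2. They are called here the libraries that stood apart. The rule took the 2 libraries with the lowest mean log2 level of the miR-183 cluster (mir-183, mir-182 and mir-96), which marks photoreceptors. It always marks 2 libraries. Summed levels of this cluster were 52.9 and 198.4 CPM, low by that choice. The other 21 libraries lay between 295.7 and 1101 CPM. mir-182 of uninjected animal 2, at 43.5 CPM, lay just inside the range of the others, whose lowest value was 41.9 CPM. The summed neuronal rows (the miR-124 and miR-9 loci) stood at 2612 and 4574 CPM, against 6142 to 13478 CPM in the others. Vessel rows (mir-126a, mir-143 and mir-145a) were instead the highest, at 2888 and 2491 CPM, against 746 to 1970 CPM. Surface epithelium rows (5 loci) were also the highest, at 117.7 and 62.6 CPM, against 18.7 to 52.9 CPM. Pigment epithelium rows (mir-204 and mir-211) lay inside the range of the others. Of the remaining lists, leukocyte rows (2 loci) stood at 66.8 and 46.6 CPM beside 19.3 to 58.2 CPM, muscle rows (2 of 5 loci) at 878 and 1149 CPM beside 67.4 to 1089 CPM, and red blood cell rows (2 of 4 loci) inside the range of the others. No row of these lists was at 0 in either library, and the retinal rows were present in all libraries. The part of tissue composition in the results below was not tested, and fewer cells of a type cannot be told apart from less of the miRNA per cell.

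Levels of mir-132 in treated, uninjected and WT retinas overlapped for the most part. In mouse gRho retinas the animals had 71.4 CPM at the lowest, 100.6 at the median and 111.9 at the highest. The human gRHO animals had 95.6 and 112.2 CPM, and the saline animal had 110.1 CPM. The uninjected animals had 102.3, 39.5 and 116.6 CPM, and the WT animals 85.2 and 75.7 CPM. Uninjected animal 2 is the lowest of the 15, and the groups overlapped except that both human gRHO animals and the saline animal lay above both WT animals.

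Group means of mir-132 were 95.1 ± 16.5 CPM with mouse gRho (SD, n = 7), 103.9 ± 11.8 with human gRHO (SD, n = 2), 86.1 ± 41.0 in uninjected P23H (SD, n = 3) and 80.5 ± 6.7 in WT (SD, n = 2). In order of level the groups ran saline, human gRHO, mouse gRho, uninjected and WT. No neighbours in that order differed beyond the spread of their animals: the saline value fell within the human gRHO range, and the WT values fell within the mouse gRho and the uninjected range.

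mir-212 had fewer reads than mir-132 in 23 of 23 libraries, and its levels also overlapped between most groups. The mouse gRho animals had 16.1 CPM at the lowest, 20.8 at the median and 28.1 at the highest. The human gRHO animals had 23.4 and 25.6 CPM, the saline animal 20.7, the uninjected animals 25.8, 10.2 and 31.03, and the WT animals 26.1 and 16.01. Here no group lay apart from another except that both human gRHO animals exceeded the saline animal, and uninjected animal 2 was again the lowest of all.

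Group means of mir-212 were 22.7 ± 4.8 CPM with mouse gRho (SD, n = 7), 24.5 ± 1.6 with human gRHO (SD, n = 2), 22.3 ± 10.8 in uninjected P23H (SD, n = 3) and 21.1 ± 7.2 in WT (SD, n = 2). The order was human gRHO, mouse gRho, uninjected, WT and saline, and the ranges of WT and of mouse gRho each covered the saline value. The 15 animals' scatter within groups, as an SD of log2(CPM + 0.5), was 0.43 for mir-132 and 0.47 for mir-212, close to the median of 0.46 over the 382 rows tested.

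**Figure D1:**
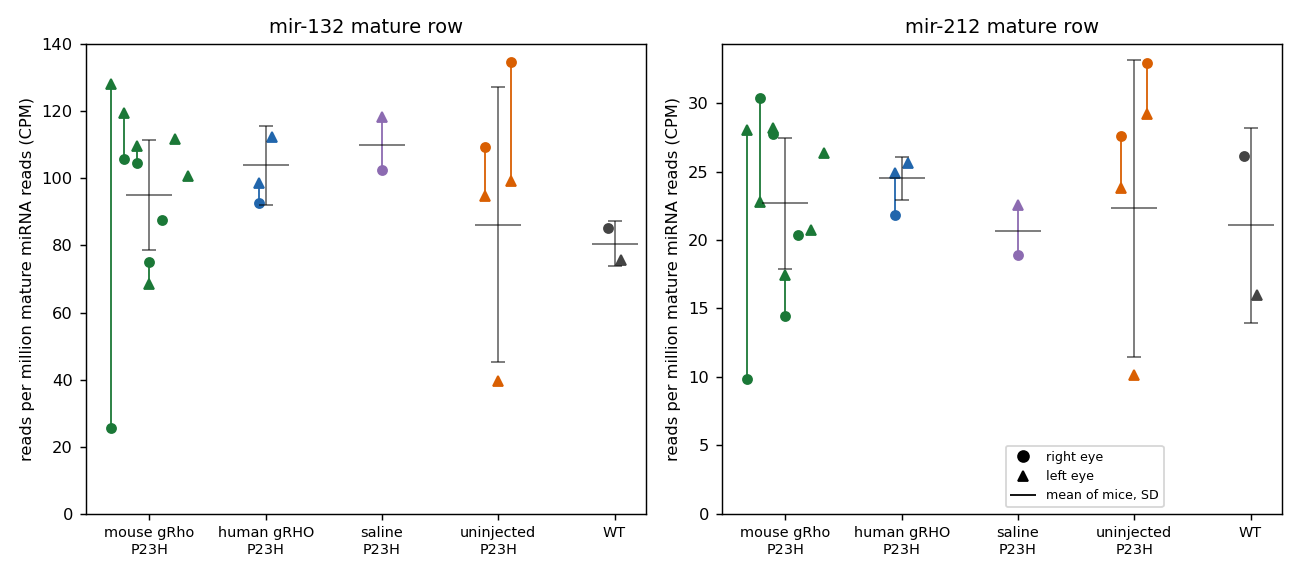
Levels of mir-132 (left) and mir-212 (right) in CPM of mature miRNA reads in 23 libraries. Circles are right eyes and triangles left eyes, lines join the eyes of 1 animal, and black bars give the mean of the animals with its SD (no SD for saline, which had 1 animal). The right eye of mouse gRho animal 1 and uninjected animal 2 are the lowest points of both panels, at 25.4 and 39.5 CPM for mir-132.

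Uninjected P23H retinas were set against WT retinas to ask whether the pair differs with the rhodopsin mutation. This gave a log2 fold change of -0.33 for mir-132 (SE 0.36, 95% interval -1.10 to 0.43, adjusted p = 0.644) and of -0.31 for mir-212 (SE 0.37, interval -1.09 to 0.47, adjusted p = 0.681), with edgeR's quasi-likelihood test and n = 3 and 2 animals. Neither member passed the adjusted threshold of 0.05 (0 of 2), where 1.57% of the 382 rows did, and DESeq2 also called 0 of 2. At an unadjusted p under 0.05 there were 0 of 2 members and 16.5% of rows. The number of rows called rested on single animals: beside 6 in the full fit there were 0 without any 1 of the 3 uninjected animals, 0 without WT animal 2 and 60 without WT animal 1. The sign depended on the scaling and on the libraries. Without TMM factors, which correct for composition, the values were 0.10 and 0.094 on mature miRNA reads, as in the CPM above, and -0.24 and -0.24 on total reads, while the median of all rows was 0.34 on mature miRNA reads without TMM, -0.050 on total reads and -0.090 with TMM. Without both libraries that stood apart they were 0.0082 (SE 0.27) and 0.036 (SE 0.28), and no row passed. Of the marker lists, 3 of 3 photoreceptor and 6 of 6 neuronal rows were lower in uninjected retinas in the fit with TMM. Their median log2 fold changes were -1.02 and -0.57, and no row passed the threshold. In CPM, without TMM, summed neuronal rows ran the other way, with library medians of 9776 in uninjected and 7728 in WT and overlapping ranges. Summed photoreceptor rows had medians of 582 in uninjected and 703 in WT, with the WT libraries at 305.6 and 1101. Fold changes of the marker rows were not taken without the libraries that stood apart. Of all 382 rows, 207 were lower in that fit. Among the other lists, surface epithelium rows (5 of 5, median 0.36) and muscle rows (2 of 2, median 1.07) were higher. Leukocyte rows (2 of 2, median -0.18) and vessel rows (2 of 3, median -0.16) were lower. Pigment epithelium and red blood cell rows each had 1 of 2 higher. The neuronal loci are copies of miR-124 and miR-9 that can share reads, and the photoreceptor rows form 1 cluster, so these rows are not independent. The part of these marker rows in the result was not tested.

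Treatment was compared with no injection to ask whether either rhodopsin construct, or saline, altered the pair. With mouse gRho (n = 7 and 3 animals) mir-132 differed by 0.33 (log2, SE 0.28, interval -0.26 to 0.92, adjusted p = 0.932) and mir-212, the partner with fewer reads, by 0.21 (SE 0.28, interval -0.39 to 0.80, adjusted p = 0.982). With human gRHO (n = 2 and 3) they differed by 0.44 (SE 0.36, interval -0.32 to 1.20, adjusted p = 0.93) and 0.30 (SE 0.37, interval -0.47 to 1.08, adjusted p = 0.93). With saline (n = 1 and 3) they differed by 0.64 (SE 0.45, interval -0.30 to 1.57, adjusted p = 0.91) and 0.17 (SE 0.46, interval -0.81 to 1.14, adjusted p = 0.948; -0.12 for mir-212 without TMM). The saline fit assumes that its lone animal varies like those of the other groups. In these 3 comparisons 0 of 2 members passed and 0% of rows did, with DESeq2 as well. At an unadjusted p under 0.05 there were 0 of 2 members in each. The share of all rows at that level was 4.71% with mouse gRho, 2.62% with human gRHO and 3.4% with saline.

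These comparisons share the uninjected animals, of which animal 2 was low for both members. Without both libraries that stood apart, mir-132 differed by 0.085 (SE 0.22) with mouse gRho, by 0.049 (SE 0.27) with human gRHO and by 0.26 (SE 0.33) with saline. mir-212 then differed by -0.058 (SE 0.22), -0.085 (SE 0.27) and -0.20 (SE 0.34) in the same comparisons, so that its sign turned in each. Photoreceptor rows were higher than in uninjected retinas (3 of 3) in each of these comparisons of the full data, with medians of 0.33 with mouse gRho, 0.80 with human gRHO and 0.75 with saline, none past the threshold. Neuronal rows, copies of miR-124 and miR-9, were higher as well (6 of 6 in each). Their medians were 0.25 with mouse gRho, 0.54 with human gRHO and 0.72 with saline, and no row passed the threshold. These marker fold changes use TMM and include uninjected animal 2, and they were not taken without it. In CPM, without TMM, summed neuronal rows had a library median of 9776 in uninjected retinas. That median was 9250 with mouse gRho, 9597 with human gRHO and 11975 with saline. Summed photoreceptor rows had medians of 582 in uninjected retinas, 632 with mouse gRho, 773 with human gRHO and 730 with saline. Of all 382 rows, 220 were higher with mouse gRho, 194 with human gRHO and 190 with saline. Among the other lists, in the same order, 3, 2 and 3 of 5 surface epithelium rows were higher. So were 0, 1 and 0 of 3 vessel rows, and 1, 0 and 0 of 2 leukocyte rows. Higher as well were 0, 2 and 0 of 2 muscle rows and 2, 0 and 1 of 2 red blood cell rows. For pigment epithelium they were 1, 1 and 2 of 2. The part of these marker rows in the values of the pair was not tested.

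Treated retinas were also set against WT retinas. With mouse gRho (n = 7 and 2 animals) mir-132 differed by -0.0072 (log2, SE 0.32, interval -0.68 to 0.67, adjusted p = 0.997), with 0.24 when no TMM factor was used. mir-212 differed by -0.10 (SE 0.32, interval -0.79 to 0.58, adjusted p = 0.858), with 0.11 when none was used. With human gRHO (n = 2 and 2 animals) the values were 0.11 (SE 0.40, interval -0.73 to 0.95, adjusted p = 0.928) and -0.0066 (SE 0.41, interval -0.86 to 0.85, adjusted p = 0.995; 0.22 for mir-212 without TMM). Here 0 of 2 members passed in either comparison, against 3.14% of rows with mouse gRho and 0% with human gRHO, and DESeq2 called 0 of 2 as well. At an unadjusted p under 0.05 there were 0 of 2 members, against 18.1% of rows with mouse gRho and 9.95% with human gRHO. Without WT animal 1 the rows called were 64 with mouse gRho and 46 with human gRHO; without WT animal 2 there were 0 in either, beside 12 and 0 in the full fit. The intervals of the pair are wide enough to hold a change of up to 0.95 (log2).

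Human gRHO and mouse gRho carry the same gene of different species. Between them (n = 2 and 7 animals) mir-132 differed by 0.12 (log2, SE 0.32, interval -0.55 to 0.79) and mir-212 by 0.095 (SE 0.32, interval -0.59 to 0.78), each with an adjusted p of 0.997 in edgeR. Here 0 of 2 members and 0% of rows passed, and at an unadjusted p under 0.05 there were 0 of 2 members and 2.88% of rows. These intervals are too wide to show that the human and mouse genes act alike on the pair. Without the libraries that stood apart the signs turned, to -0.036 and -0.028.

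**Figure D2:**
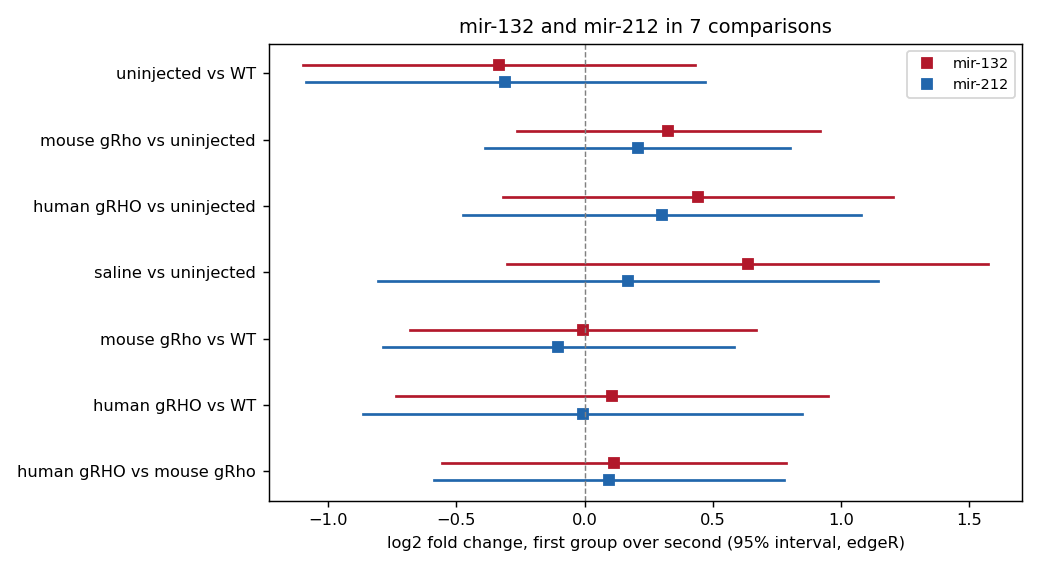
Log2 fold changes of mir-132 (red) and mir-212 (blue) in 7 comparisons, first group over second, with 95% intervals from edgeR. Every interval crosses 0; the value farthest from 0 is that of mir-132 in saline against uninjected retinas, at 0.64.

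Title numbers shared by several mouse gRho animals split that group into 3 sets, whose meaning the labels do not give. Their mean levels of mir-132 were 92.2, 97.7 and 94.1 CPM (2, 3 and 2 animals), and those of mir-212 were 23.5, 21.7 and 23.3 CPM. The human gRHO animals share a title number, as do the uninjected ones, and none recurs in another group, so that this number and the treatment cannot be told apart. rRNA made up over 3% of aligned reads in 6 libraries. In these mir-132 ranged from 39.5 to 134.6 CPM (median 108.2), against 25.4 to 128.1 CPM (median 98.5) in the other 17. mir-212 ranged from 10.2 to 33.0 CPM (median 25.3) in the rRNA-rich libraries, against 9.87 to 30.4 CPM (median 23.8) in the others.

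Reads of mir-132 per read of mir-212 had a median of 3.98 over 23 libraries. The ratio was 4.25 ± 0.55 with mouse gRho (SD, n = 7), 4.23 ± 0.20 with human gRHO (SD, n = 2), 5.33 in the saline animal, 3.87 ± 0.11 in uninjected P23H (SD, n = 3) and 3.99 ± 1.04 in WT (SD, n = 2). It is a ratio of reads of rows with no arm given, not of molecules. The saline libraries, at 5.42 and 5.24, lay above the 5 uninjected libraries, which ran from 3.40 to 4.08, but they come from 1 animal, and this difference was not tested. The 3 uninjected animals, at 3.97, 3.89 and 3.76, lay close together even though animal 2 had the lowest level of both members.

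The log2 ratio was compared by exact two-sided permutation over animals in 3 comparisons. It differed by -0.022 between uninjected P23H and WT (p = 0.8, where 0.1 is the smallest p the design allows), by 0.13 between mouse gRho and uninjected (p = 0.267) and by 0.10 between mouse gRho and WT (p = 0.528). Adjusted over the 3 comparisons, these exact p-values were 0.8, 0.792 and 0.792. The ratio in the WT animals was 3.26 and 4.73, with exact binomial 95% intervals of 2.83 to 3.77 and 4.13 to 5.43. These intervals cover counting error in each library and not the spread between animals. The mouse gRho animals lay between 3.82 and 5.39.

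**Figure D3:**
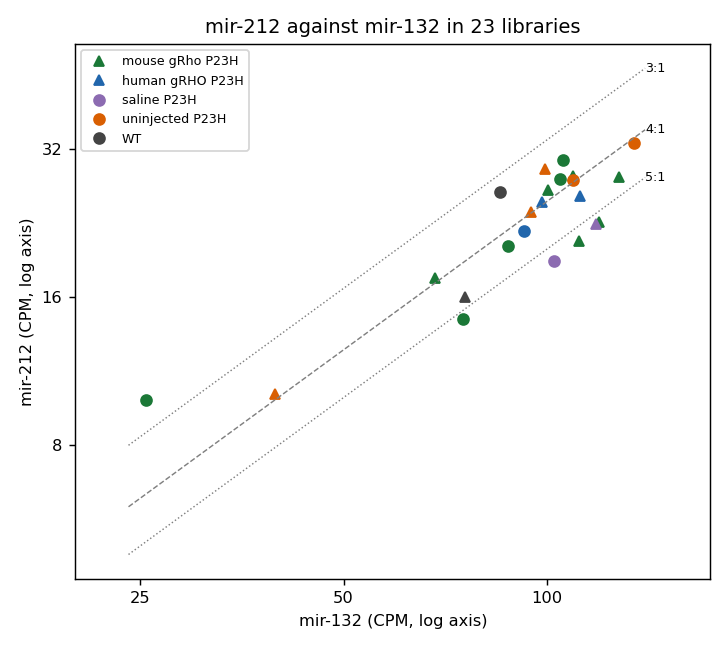
mir-212 against mir-132 in 23 libraries, both in CPM on log axes; circles are right eyes and triangles left eyes, colours give the group, and grey lines mark 3, 4 and 5 reads of mir-132 per read of mir-212. Apart from the 2 lowest points, at 25.4 and 39.5 CPM, the libraries lie between 68.4 and 134.6 CPM of mir-132, and the lowest point, the right eye of mouse gRho animal 1, has a ratio of 2.58.

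Both eyes were sequenced in 8 animals. mir-132 differed between the eyes by between 0.067 and 0.44 (absolute log2) in 7 of them, and mir-212 by between 0.020 and 0.41. mir-132 stood at 92.6 CPM in the right and 98.5 CPM in the left eye of human gRHO animal 1, and at 102.5 and 118.2 CPM in those of the saline animal. In uninjected animals 1 and 3 the right eyes had 109.4 and 134.6 CPM and the left eyes 94.8 and 99.3 CPM. The exception was mouse gRho animal 1, with 25.4 CPM of mir-132 in the right and 128.1 CPM in the left eye, a difference of -2.31. Its mir-212 stood at 9.87 CPM in the right and 28.1 CPM in the left eye, a difference of -1.46. This left eye had 943 CPM of photoreceptor rows, within the range of the other libraries.

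Over the 8 animals the mean right minus left difference was -0.26 ± 0.86 (log2, SD) for mir-132 and -0.17 ± 0.57 for mir-212, and the right eye was higher in 3 of 8 for each. An exact two-sided sign-flip permutation test gave p = 0.641 and p = 0.523 (adjusted over both, 0.641 each). Without animal 1 the means were 0.035 and 0.010.

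In both libraries that stood apart the pair was lower than in any other library, by less than the photoreceptor rows and mir-124-1. These libraries were picked by their low photoreceptor rows, so the larger fall of those rows is partly set by that choice. mir-132 fell by more than mir-9-1 in both libraries, and mir-212 did so only in uninjected animal 2. In the right eye of mouse gRho animal 1 mir-132 was 4.03-fold and mir-212 2.52-fold below the median of the other 21 libraries, while mir-183 was 11.6-fold, mir-182 19.7-fold, mir-124-1 25.4-fold and mir-9-1 3.75-fold below. In uninjected animal 2 mir-132 was 2.59-fold and mir-212 2.45-fold below, while mir-183 was 3.59-fold, mir-182 3.13-fold, mir-124-1 3.34-fold and mir-9-1 2.12-fold below. mir-204, abundant in pigment epithelium, stood at 124.9 and 116.7 CPM in these libraries, beside a median of 117.6 CPM in the others.

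Across 23 libraries, log2 levels of mir-132 and the mean log2 level of the photoreceptor rows had a Pearson r of 0.87, and mir-212 an r of 0.80. Without both libraries that stood apart r was 0.50 and 0.58 (21 libraries). They were picked as the lowest in these photoreceptor rows, and leaving them out narrows the range, which by itself can lower r. These values describe the libraries, which share a common denominator and include both eyes of 8 animals.

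**Figure D4:**
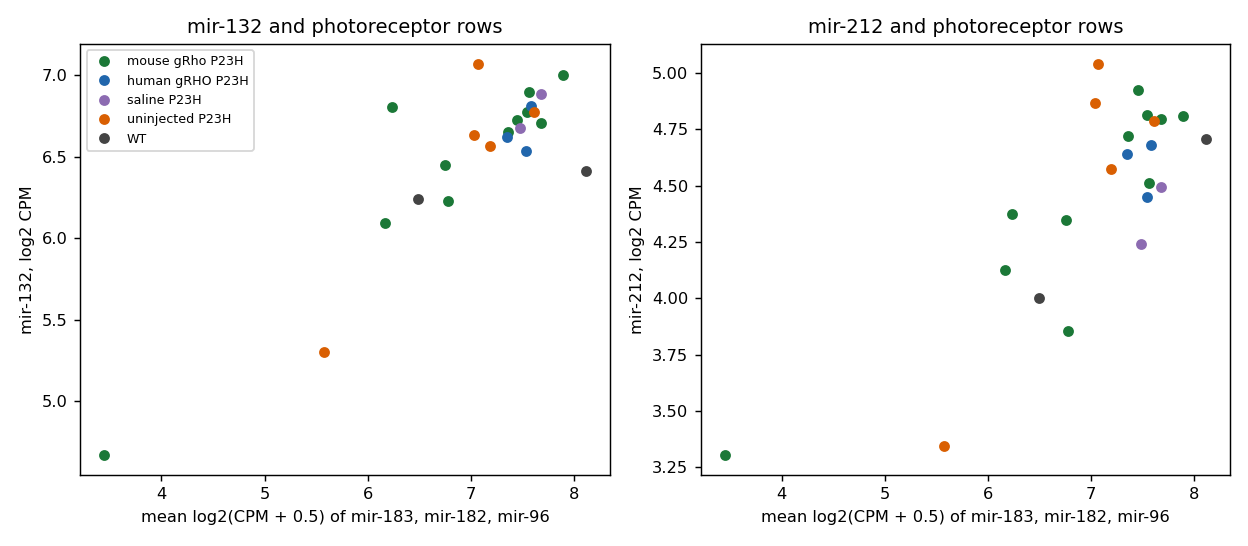
Log2 CPM of mir-132 (left) and mir-212 (right) against the mean log2(CPM + 0.5) of mir-183, mir-182 and mir-96, 1 point per library, coloured by group. The lowest points of both panels are the right eye of mouse gRho animal 1 and uninjected animal 2. They were picked as the lowest on the horizontal axis, and without them r was 0.50 and 0.58.

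Rows with the most similar pattern were sought by Pearson's r of log2(CPM + 0.5) over the 15 animals, among 381 tested rows for each member. For mir-132 the most similar row was mir-212 (r = 0.89), followed by mir-190b (0.85), mir-758 (0.84), mir-7a-1 (0.84) and mir-9-3 (0.83). For mir-212 it was mir-132 (0.89), followed by mir-183 of the photoreceptor cluster (0.86), mir-7a-1 (0.86), mir-124-3 (0.84) and mir-124-1 (0.84), of a miRNA abundant in neurons. The median r over all rows was 0.021 for mir-132 and 0.063 for mir-212. The mir-7a, mir-9 and mir-124 loci are copies that can share reads.

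This order depended on the libraries that stood apart. Without them r between the members was 0.75 over 14 animals, mir-212 was the second most similar row to mir-132, after mir-362 (0.78), and mir-132 was the ninth most similar to mir-212, whose closest row was mir-129-2 (0.81). Scale and depth enter all of these values, since every row of an animal is divided by the same total.

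Other miRNAs known to respond to neuronal activity, light or the circadian clock were set beside the pair. The list held 16 locus names, the pair included, of which 14 were in the table and 13 were tested. It also holds mir-183, mir-182, mir-96, mir-204 and mir-211, which are the photoreceptor and pigment epithelium rows above. The mir-129 and mir-219a rows are copies that can share reads. The 13 rows are thus neither independent of each other nor separate from the marker lists. Between uninjected P23H and WT, 5 of the 13 were higher and 8 lower. Their median log2 fold change was -0.31, which is the value of mir-212 itself, beside -0.090 over all rows. The largest changes were those of mir-138-2, a neuronal miRNA found at synapses (-1.53, SE 0.48, adjusted p = 0.146), and mir-134, a dendritic miRNA (-1.26, SE 0.68, adjusted p = 0.372).

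Against uninjected retinas, 220 of all 382 rows were higher with mouse gRho, 194 with human gRHO and 190 with saline. Of the list, 8 of 13 were higher with mouse gRho (median 0.20, all rows 0.079), 9 of 13 with human gRHO (median 0.36, all rows 0.010) and 9 of 13 with saline (median 0.39, all rows -0.0050). The largest changes were mir-134 (0.67, SE 0.53) and mir-219a-1 (-0.67, SE 0.39) with mouse gRho, mir-134 (1.19, SE 0.66) and mir-183 (0.81, SE 0.53) with human gRHO, and mir-96 (1.504, SE 0.68) and mir-134 (1.02, SE 0.80) with saline.

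Against WT, 188 of all 382 rows were higher with mouse gRho and 193 with human gRHO. Of the list, 4 of 13 were higher with mouse gRho (median -0.10, which is mir-212 itself, all rows -0.0052). With human gRHO 7 of 13 were higher (median 0.11, which is mir-132 itself, all rows 0.020). The largest were mir-138-2 (-1.16, SE 0.40, adjusted p = 0.129) and mir-204 (0.94, SE 0.28, adjusted p = 0.0831) with mouse gRho, and mir-138-2 (-1.55, SE 0.55, adjusted p = 0.29) and mir-129-2 (1.03, SE 0.48, adjusted p = 0.5) with human gRHO. Between human gRHO and mouse gRho 10 of 13 were higher (median 0.29), against 170 of all 382 rows (median -0.044). Within the list mir-129-2 (0.69, SE 0.37) and mir-182 (0.65, SE 0.46) were the largest. In the 7 comparisons 0 of the 13 passed, which includes the pair. mir-138-2 has a copy at another locus, which was set aside as two-level. These copies can share reads, and how such reads were assigned to the mir-138-2 row is not known.

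Other read classes of these loci were almost empty. The stem-loop row of mir-132 held 11 reads over 6 libraries, among them 4 in the right eye of uninjected animal 1 and 3 in WT animal 1. Its precursor row held 3 reads in 3 libraries, beside 22493 reads in its mature row over all libraries. mir-212 had a mature row alone, with 5409 reads. At these depths the hairpins cannot be compared between groups.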

How the data were processed

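Frozen retinas yielded RNA by Trizol, and libraries came from a NEXTflex small RNA kit, per the labels' protocols. Both tables of whole-read counts were deposited by the authors, 1 by miRNA locus and class and 1 by library and alignment class. DESeq2, without a version, is the tool in the submitters' processing notes; the sources used here name no aligner, counting program or build. Summed mature rows hold 10.4% to 19.5% of the mature miRNA reads in the alignment table, which also sets 5.52% to 17.9% of miRNA reads apart as cross-mapped. A row may thus count part of its reads only, and how far this holds for the pair cannot be read from these totals. Unused sample columns numbered 0.

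Eyes of 1 animal were summed, for 15 animals. Rows that jump between 2 levels across libraries were left out of the fit: a highest count of at least 30 and a largest gap in sorted log2(CPM + 0.5) of at least 3.5, or of 2 where 2 libraries lay beyond it. Of 337 rows with such counts 65 were left out. The largest gaps of mir-132 and mir-212 were 0.78 and 0.49. A minimum of 10 counts in 3 or more animals kept 382 rows, which were fitted in edgeR 4.0.16 (R 4.3.3; quasi-likelihood, robust, TMM on mature miRNA reads), all 5 groups together, with Benjamini-Hochberg adjustment over all rows. SE is the size of a log2 fold change over the square root of its F. Alternatives used limma 3.58.1 and DESeq2 1.42.0. The fit was tested on simulated data. Where titles do not mark animals, a p-value reflects only how far these sums scatter, and part of that may be technical.

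The members, lists and the rule for two-level rows were chosen with earlier results of these data known. Named are both members, the 5 rows most similar to each, and the 2 largest changes of the activity list in each comparison; marker rows and the most similar rows after leaving out libraries were named after their values were seen.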

Additional observations from a re-analysis of the deposited data

Results flagged for a closer look

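Levels of mir-132 and mir-212 held no sample far from its group by Dixon's test, which was applied to the 5 uninjected libraries and the 7 mouse gRho animals for each member and for their ratio (6 groups of values). Chance marks about 1 in 20 such groups. The eyes of mouse gRho animal 1 were summed for this test. Its right eye, at 25.4 CPM of mir-132 beside 128.1 CPM in the left, was thus not tested alone. The ratio of mir-132 to mir-212 reads stood far from the others in the left eye of uninjected animal 3, at 3.40 against 3.89 to 4.08 in the other 4 uninjected libraries. These 5 libraries come from 3 animals, 2 of them with both eyes, and are not independent. The gap was 0.711 of the range, beside a critical value of 0.71. It also did so in mouse gRho animal 6, at 5.39 against 3.82 to 4.43 in the other 6 animals of that group. The library of mouse gRho animal 6 had 4.85% rRNA among aligned reads and the left eye of uninjected animal 3 had 3.00%.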

How the results depend on the processing

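The 14 log2 fold changes of the members were refitted 230 times: 188 fits kept the sign, 42 turned it, and 0 passed the threshold (smallest adjusted p 0.546). For each value that turned, the cause was not tested. Without TMM, mir-132 was 0.10 and mir-212 0.094 for uninjected against WT, mir-212 was -0.12 for saline against uninjected, mir-132 was 0.24 and mir-212 0.11 for mouse gRho against WT, and mir-212 was 0.22 for human gRHO against WT. Dropping TMM moved the median of all rows by between -0.29 and 0.43. For mouse gRho against WT, mir-132 was 0.0091 with DESeq2, 0.0084 on total reads, 0.12 with no filter on low counts and 0.16 with two-level rows kept, where mir-212 was 0.045. For human gRHO against WT, mir-212 was 0.098 on total reads, 0.0049 on the total of the mature rows, 0.081 with no filter and 0.081 with two-level rows kept. Without the libraries rich in rRNA, which leaves 1 uninjected animal that is assumed to vary like the other groups, mir-132 was 0.0049 for uninjected against WT and -0.038 for mouse gRho against uninjected, and mir-212 was -0.025 with mouse gRho, -0.023 with human gRHO and -0.16 with saline against uninjected. Without both libraries that stood apart, mir-132 was 0.0082 for uninjected against WT, 0.093 for mouse gRho against WT and -0.036 for human gRHO against mouse gRho. mir-212 was then 0.036 for uninjected against WT, -0.058, -0.085 and -0.20 for mouse gRho, human gRHO and saline against uninjected, and -0.028 for human gRHO against mouse gRho.

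Leaving out each animal in turn gave, for mir-132, -0.51 to -0.0034 for uninjected against WT, -0.030 to 0.51 for mouse gRho against uninjected, 0.082 to 0.64 for human gRHO against uninjected, 0.26 to 0.80 for saline against uninjected, -0.070 to 0.16 for mouse gRho against WT, -0.035 to 0.29 for human gRHO against WT and -0.046 to 0.29 for human gRHO against mouse gRho. For mir-212 the ranges were, in the same order of comparisons, -0.52 to 0.017, -0.15 to 0.41, -0.055 to 0.50, -0.21 to 0.36, -0.20 to 0.13, -0.18 to 0.20 and -0.010 to 0.23. The lone saline animal could not be left out. The log2 ratio of the members ranged from -0.29 to 0.25 for uninjected against WT, 0.067 to 0.15 for mouse gRho against uninjected and -0.16 to 0.37 for mouse gRho against WT. Right minus left ranged from -0.36 to 0.035 for mir-132 and -0.26 to 0.010 for mir-212. The log2 ratios without both libraries that stood apart, an alternative chosen after seeing the data, were -0.023, 0.15 and 0.13.

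Rows called between uninjected and WT, 6 in the full fit, were 11 with DESeq2, 11 with no filter, 2 with each eye as a sample, 1 with two-level rows kept, 0 in a fit of these groups alone, 0 without the rRNA-rich libraries (1 uninjected animal left) and 0 without both libraries that stood apart. Between mouse gRho and WT, 12 in the full fit, they were 7 without TMM, 7 without the rRNA-rich libraries and 19 with each eye as a sample. Between human gRHO and WT, 0 in the full fit, they were 5 with DESeq2. Each library held at least 71 reads of either member, and what limits the calls was not tested. No paired analysis was possible because the replicate numbers were given in accession order and pair no animals across groups.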
